A study of Zea mays with 4 samples.

Results

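ADP-glucose pyrophosphorylase (AGPase) makes ADP-glucose, the sugar nucleotide from which starch is built, and is a tetramer of large and small subunits. In most plant tissues the enzyme lies in the plastid. Cereal endosperm is known for a further form in the cytosol, which in maize is made of the large subunit encoded by shrunken2 (sh2) and the small subunit encoded by brittle2 (bt2). Its product enters the plastid through the transporter encoded by brittle1 (bt1), and kernels of mutants in these genes store little starch. The gene models followed here were chosen by their identifiers and number 8 of the 110028 models in each library. The large subunit genes were sh2 (GRMZM2G429899), GRMZM2G391936, GRMZM2G027955 and GRMZM2G144002. The small subunit genes were bt2 (GRMZM2G068506), GRMZM2G163437 and GRMZM2G106213, and the transporter gene was bt1 (GRMZM2G144081). The RefSeq gene table names GRMZM2G144002 AGPLS3, GRMZM2G163437 agpsl1 or GLG1, and GRMZM2G106213 Agpsemzm or Agp2. It gives GRMZM2G027955 the name AGP2 too, so that gene is called by its identifier below.

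RNA came from central starchy endosperm of the maize inbred B73, from self-pollinated greenhouse plants, at 6 days after pollination (DAP), before most starch is laid down. The tissue was isolated with a laser from kernel sections, the polyadenylated RNA was amplified, and 4 libraries of this 1 group shared a flow cell lane. There was no second tissue, stage or genotype, so the comparisons are between genes within a library and between libraries. Whether the 4 replicates stem from separate plants is not stated, and the spread between them may be technical.

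Levels are given in RPM, a gene's reads for every 1000000 reads on gene models of that library, with mean ± SD over 4 libraries, and a gene is called detected where it averaged at least 1 RPM. Depth was 3432952 to 5477465 reads. No transcript length was at hand, so RPM and every ratio between genes compare reads, and are not corrected for the length of the transcripts. The 3 reads that were taken as the floor of detection correspond to 0.548 to 0.874 RPM in a library and to 0.157 RPM over all libraries. Intervals in brackets are exact 95% intervals that cover counting error only, because amplified reads are not independent molecules.

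The label of the tissue was checked on marker lists. All 5 matched endosperm regulators, among them fl3 and nkd1, averaged over 10 RPM and summed to 2787, 2312, 2250 and 1584 RPM in replicates 1 to 4. Most of that sum was fl3, at 2674, 2188, 2107 and 1400 RPM. In replicate 4 nkd1, nkd2 and ohp1 were highest and ohp2 was lowest. The 4 matched genes of maternal and green tissue summed to 0 to 1.46 RPM, with bde1 and rbcs1 at 0. Of 5 matched embryo markers, ole1 and wox2a were detected, glb2 and wox5b were at 0, and the sum was 25.3 to 45.5 RPM, highest in replicate 4. The 10 markers listed for the basal transfer layer matched 7 models, with betl2 and bap2 as 1 model. All 7 were detected and summed to 289, 592, 493 and 59.3 RPM in replicates 1 to 4. The 3 for the embryo-surrounding region summed to 29.4, 33.9, 22.9 and 1.64 RPM. In replicate 4, betl3 and esr6 were at 0. Most of the transfer layer sum was betl2, at 191, 436, 329 and 27.2 RPM, while ebe1 of the same list was not low in replicate 4, at 26.2, 22.1, 25.9 and 27.2 RPM. Of 6 aleurone genes 4 were detected, c1 and r1 were at 0, and the sum was 109 to 135 RPM. Replicate 4 thus stood apart by its low sums of transfer layer and embryo-surrounding markers.

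The 8 genes spanned the range from no read to above 92.0% of detected genes. In order of mean level they were Agpsemzm, GRMZM2G027955, AGPLS3, agpsl1, bt2, sh2, bt1 and GRMZM2G391936. Each of the first 4 exceeded the next gene in every library, and the ranges of these neighbours in the order did not overlap. From bt2 downwards the ranges of neighbours overlapped, so none of these genes could be placed above the next beyond their spread. The endosperm cytosolic pair, sh2 and bt2, therefore stood below 4 of the other 5 subunit genes in all 4 libraries. The remaining one, GRMZM2G391936, had no read, but sh2 was not above it beyond counting error in any single library. Over all libraries, with 9 reads of sh2 against 0, sh2 was above it beyond counting error. The exact interval of that ratio had a lower bound of 1.97.

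**Figure D1:**
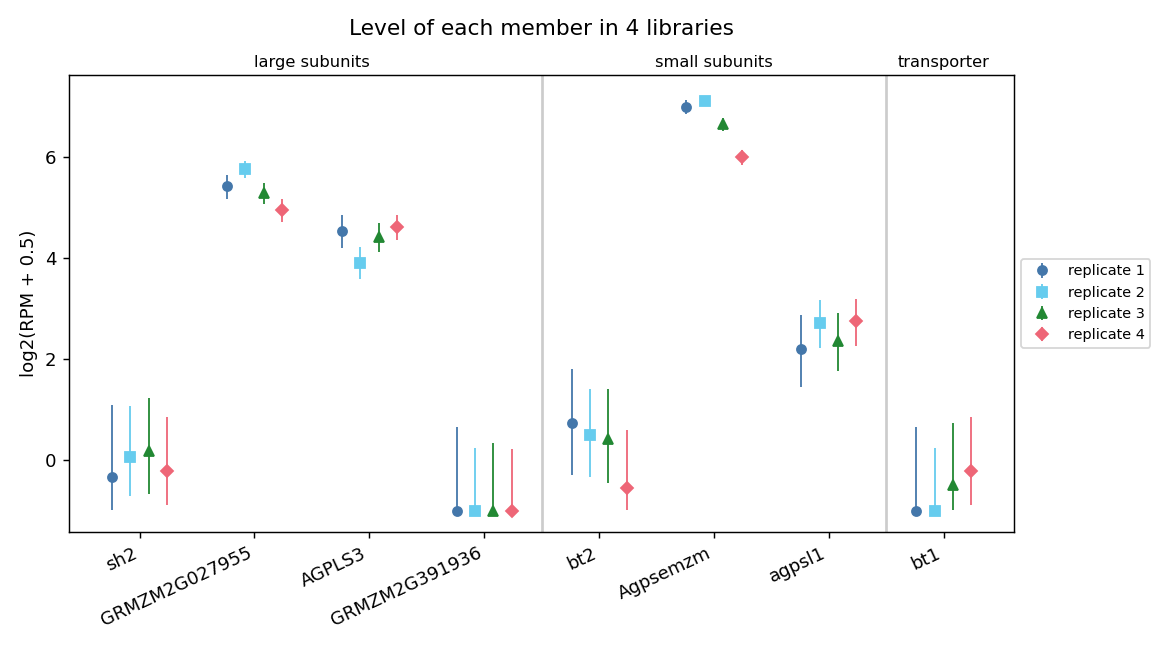
Level of each gene as log2(RPM + 0.5), with large subunits, small subunits and the transporter from left to right. Points are the 4 libraries and bars are exact 95% Poisson intervals. Agpsemzm, GRMZM2G027955 and AGPLS3 lie far above sh2, bt2 and bt1, whose intervals overlap.

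Among the large subunit genes, which are known for their part in the allosteric regulation of the enzyme, sh2 had 1, 3, 3 and 2 reads in replicates 1 to 4, or 0.291, 0.553, 0.631 and 0.365 RPM. All libraries were at or under the floor, and the 9 reads in all gave 0.471 RPM (0.216 to 0.895). GRMZM2G391936 had no read in any library. Over the 19093384 reads of all libraries the floor of 3 reads is 0.157 RPM, and the exact 95% upper bound for this gene was 0.193 RPM. Neither gene can be called present or absent in a single library at this depth.

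GRMZM2G027955 was the leading large subunit gene, with 145, 290, 183 and 166 reads. These gave 42.2, 53.4, 38.5 and 30.3 RPM, a mean of 41.1 ± 9.60 RPM, above the level of 78.7% of detected models. It was highest in replicate 2 and lowest in replicate 4. AGPLS3 had 78, 79, 99 and 131 reads, or 22.7, 14.6, 20.8 and 23.9 RPM, a mean of 20.5 ± 4.17 RPM. It was lowest in replicate 2, where GRMZM2G027955 was highest, and highest in replicate 4, where GRMZM2G027955 was lowest.

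Over all libraries GRMZM2G027955 had 87.1 times the reads of sh2 (45.7 to 191), and AGPLS3 had 43.0 times the reads of sh2 (22.4 to 94.8). In single libraries the first ratio was 145, 96.7, 61.0 and 83.0, with a lowest interval bound of 20.5, and the second was 78.0, 26.3, 33.0 and 65.5, with a lowest bound of 8.69. On the log2(RPM + 0.5) scale sh2 lay at -5.42 ± 0.34 relative to GRMZM2G027955 and at -4.44 ± 0.50 relative to AGPLS3, lower in 4 of 4 libraries (two-sided exact sign-flip permutation p = 0.125 for each). With 4 libraries this is the smallest p the test can give, so no ratio of the 10 examined could pass 0.05. The differences were many times the spread between libraries, although 1 to 3 reads of sh2 give these sizes a counting error of several-fold. The pseudocount also sets the log2 values of genes with so few reads, and for sh2 relative to GRMZM2G027955 they ran from -4.83 with a pseudocount of 1 to -6.22 with 0.1. For sh2 and GRMZM2G391936 no fold is given in single libraries, because both were at or under the floor there. Over all libraries sh2, with 9 reads, stood 3.0-fold above GRMZM2G391936 when the latter was set at 3 reads.

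Small subunits are known as the main catalytic part of AGPase. Here bt2 had 4, 5, 4 and 1 reads, or 1.17, 0.921, 0.841 and 0.183 RPM, and its 14 reads in all gave 0.733 RPM (0.401 to 1.23). It was above the floor in replicates 1 to 3 and under it in replicate 4. Agpsemzm, which is known for its transcript in the embryo, had 433, 747, 475 and 346 reads. Its levels of 126, 138, 99.9 and 63.2 RPM gave a mean of 107 ± 33.0 RPM, above 92.0% of detected models. Replicates 1 and 2 were high and replicate 4 was lowest. The gene agpsl1 had 14, 33, 22 and 34 reads, or 4.08, 6.08, 4.63 and 6.21 RPM, and intervals of all 4 libraries overlapped. Its mean of 5.25 ± 1.06 RPM exceeded that of 32.2% of detected models.

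Agpsemzm had 143 times the reads of bt2 over all libraries (85.0 to 262). The ratio was 108, 149, 119 and 346 in replicates 1 to 4, and on the log2(RPM + 0.5) scale bt2 lay at -6.41 ± 0.20, lower in 4 of 4 libraries (exact permutation p = 0.125). The pseudocount also sets this spread, since bt2 had so few reads. The SD was 0.53 with a pseudocount of 0.1 and 0.19 with 1. The gene agpsl1 had 7.36 times the reads of bt2 (4.19 to 13.9), with 3.50, 6.60, 5.50 and 34.0 in single libraries and -2.23 ± 0.78 on the log2 scale (4 of 4 libraries, exact permutation p = 0.125). Even the smallest of these ratios, in replicate 1, had an interval above 1 (1.10 to 14.6). GRMZM2G391936, with no read, was 34.3-fold lower than agpsl1 when set at 3 reads over all libraries. The exact interval from the reads themselves had a lower bound of 27.4-fold.

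**Figure D2:**
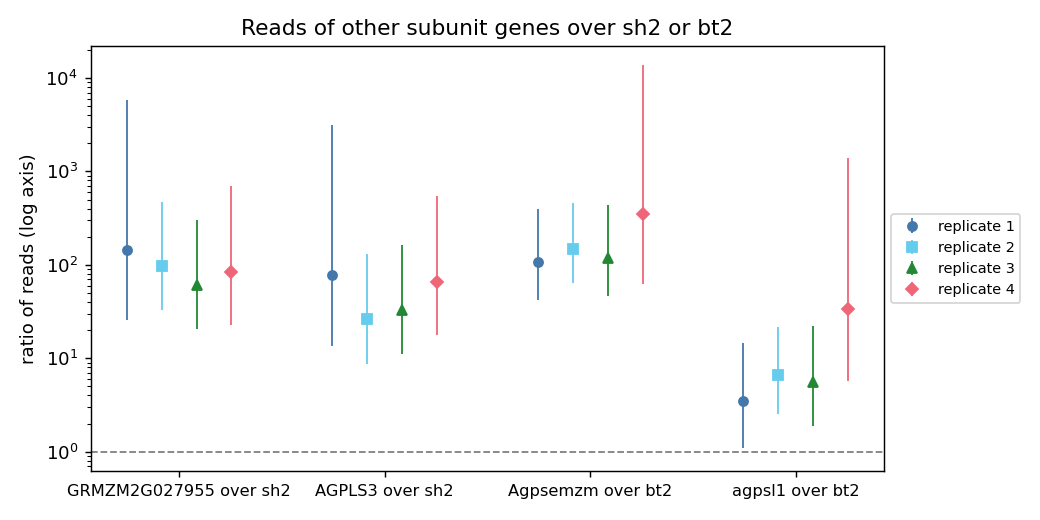
Reads of 4 subunit genes divided by the reads of sh2 (left) or bt2 (right) in the same library, on a log axis, with exact 95% intervals that cover counting error. All points and intervals lie above the dashed line at equal reads, from 3.50 for agpsl1 over bt2 in replicate 1 to 346 for Agpsemzm over bt2 in replicate 4.

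The pair sh2 and bt2 did not differ from each other beyond counting error. Their reads stood at 9 against 14, a ratio of 0.643 (0.245 to 1.59), and sh2 was lower in 3 of 4 libraries (log2 ratio -0.35 ± 0.58, exact permutation p = 0.375). This does not show that the 2 levels are equal. The transporter gene bt1 had 0, 0, 1 and 2 reads, or 0, 0, 0.210 and 0.365 RPM, at or under the floor in every library. Its 3 reads in all gave 0.157 RPM (0.0324 to 0.459). Reads of bt2 were 4.67 times those of bt1 over all libraries (1.30 to 25.3), but the order turned round in replicate 4, with 2 reads of bt1 and 1 of bt2 (log2 ratio of bt1 to bt2 -0.95 ± 0.93, exact permutation p = 0.25). No fold of bt1 over sh2 is given in single libraries, since both were at or under the floor there. Over all libraries the ratio of bt1 to sh2 was 0.333 (0.0580 to 1.34), an interval that includes equal reads. The log2 ratio that the pseudocount sets for that pair was -0.60 ± 0.44 (exact permutation p = 0.25).

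Put together, sh2 and bt2 contributed 23 of the 3298 reads of the 7 subunit genes, a share of 0.697% (0.443 to 1.04%). The share was 0.741, 0.691, 0.891 and 0.441% in replicates 1 to 4, with the highest upper bound at 1.83%. Their summed level was 1.46, 1.47, 1.47 and 0.548 RPM, against 195, 212, 164 and 124 RPM for the other 5 subunit genes. The rest of the subunit reads in every library came from GRMZM2G027955, AGPLS3, Agpsemzm and agpsl1. In bulk tissue, fewer cells that express a gene and less RNA per cell cannot be told apart.

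Large subunit genes took 33.2, 32.2, 36.3 and 44.0% of the subunit reads, and the intervals of replicate 4 (40.2 to 47.8%) did not overlap those of the other libraries. The summed level of the large subunits was nearly even, at 65.2, 68.5, 59.9 and 54.6 RPM, a coefficient of variation of 9.86%. For the small subunits it was 131, 145, 105 and 69.6 RPM, a coefficient of variation of 29.3%, beside 31.0% for Agpsemzm alone.

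Within the large subunits, AGPLS3 made up 34.8, 21.2, 34.7 and 43.8% of reads in replicates 1 to 4. The intervals of replicate 2 (17.2 to 25.7%) and replicate 4 (38.1 to 49.6%) were well apart. GRMZM2G027955 made up 64.7, 78.0, 64.2 and 55.5%. Within the small subunits Agpsemzm held 96.0, 95.2, 94.8 and 90.8%, and agpsl1 3.10, 4.20, 4.39 and 8.92%, with the highest share of agpsl1 in replicate 4. GRMZM2G027955 and Agpsemzm, the leading gene of each kind, stood in the same order over the libraries (replicate 2, 1, 3, then 4), and GRMZM2G027955 lay below Agpsemzm by a log2 ratio of -1.33 ± 0.21 (4 of 4 libraries, exact permutation p = 0.125).

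**Figure D3:**
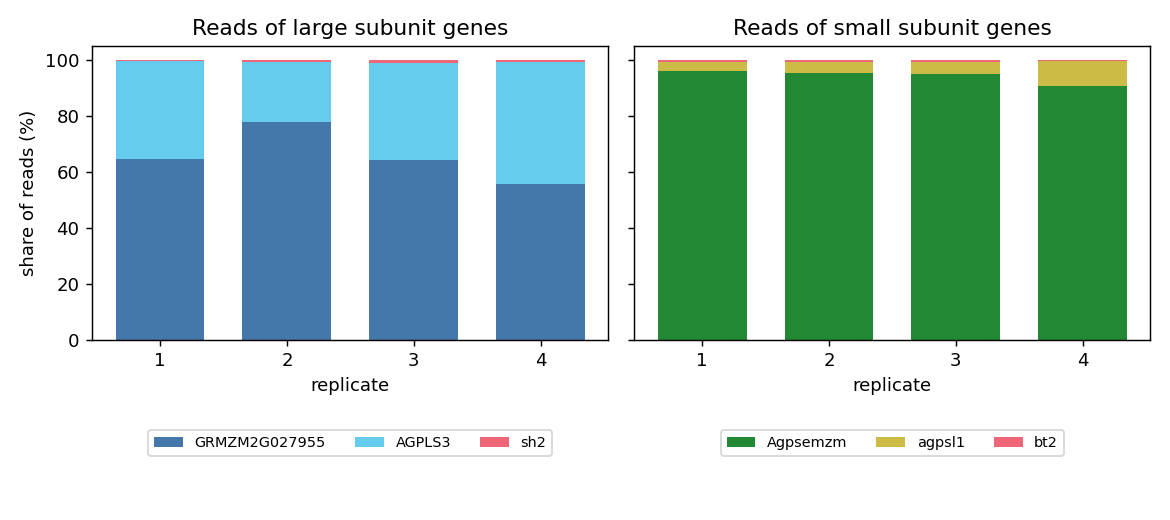
Share of reads, in percent, of each gene among large subunit reads (left) and small subunit reads (right) in replicates 1 to 4. GRMZM2G391936 had no read. The sh2 and bt2 segments are hardly visible, at 1.05% or less, and the share of AGPLS3 runs from 21.2% in replicate 2 to 43.8% in replicate 4.

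Reads of a gene were also compared between libraries, to see whether the spread exceeded counting error. Of the 8 genes, 4 passed the filter on low reads: GRMZM2G027955, AGPLS3, agpsl1 and Agpsemzm. A chi-square test with Benjamini-Hochberg adjustment over all genes called 3 of these 4, beside 44.3% of the 16516 genes tested. At 10 RPM or more the same 3 members were called, beside 55.1% of 11243 genes, so a call is common for genes at such levels. For Agpsemzm the highest library exceeded the lowest by 0.96 on the log2 scale after scaling (chi-square adjusted p = 2.86e-24), for GRMZM2G027955 by 0.65 (chi-square adjusted p = 7.79e-05) and for AGPLS3 by 0.85 (chi-square adjusted p = 0.00121). The gene agpsl1, with far fewer reads, was not called (0.70, chi-square adjusted p = 0.387).

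Single libraries decided part of these calls. Without replicate 2, only Agpsemzm was called, and the adjusted p was 0.231 for GRMZM2G027955 and 0.337 for AGPLS3, beside 37.1% of all genes called. Without replicate 4 the 3 genes were still called, with chi-square adjusted p of 9.28e-05 for Agpsemzm, 0.0252 for GRMZM2G027955 and 0.0435 for AGPLS3, while only 17.4% of all genes were. Without replicate 3 there were also 3 calls, beside 40.9%, and without replicate 1 again 3, beside 6791 of 16899 genes. With no filter on low reads 3 of 7 members were called, beside 20.7% of 37643 genes, and with library totals in place of scaling factors 3 of 4, beside 45.8%. By edgeR's measure of spread, AGPLS3 and Agpsemzm exceeded the biological coefficient of variation common to all genes, as did 36.6% of genes. Without replicate 4, a setting added after the values were seen, Agpsemzm no longer did, while GRMZM2G027955, AGPLS3 and agpsl1 did, beside 58.3% of genes. The low level of Agpsemzm and GRMZM2G027955 in replicate 4 came with the low sums of basal transfer layer and embryo-surrounding markers given above. In that library the summed endosperm regulators, mostly fl3, also lay at -0.50 relative to their mean (log2), the aleurone genes at -0.21 and the embryo markers at 0.50. Of the other regulators, nkd1, nkd2 and ohp1 were highest in that library and ohp2 was lowest. The part of any of these marker lists in the levels of the members was not tested. AGPLS3 and agpsl1 were not low in that library.

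**Figure D4:**
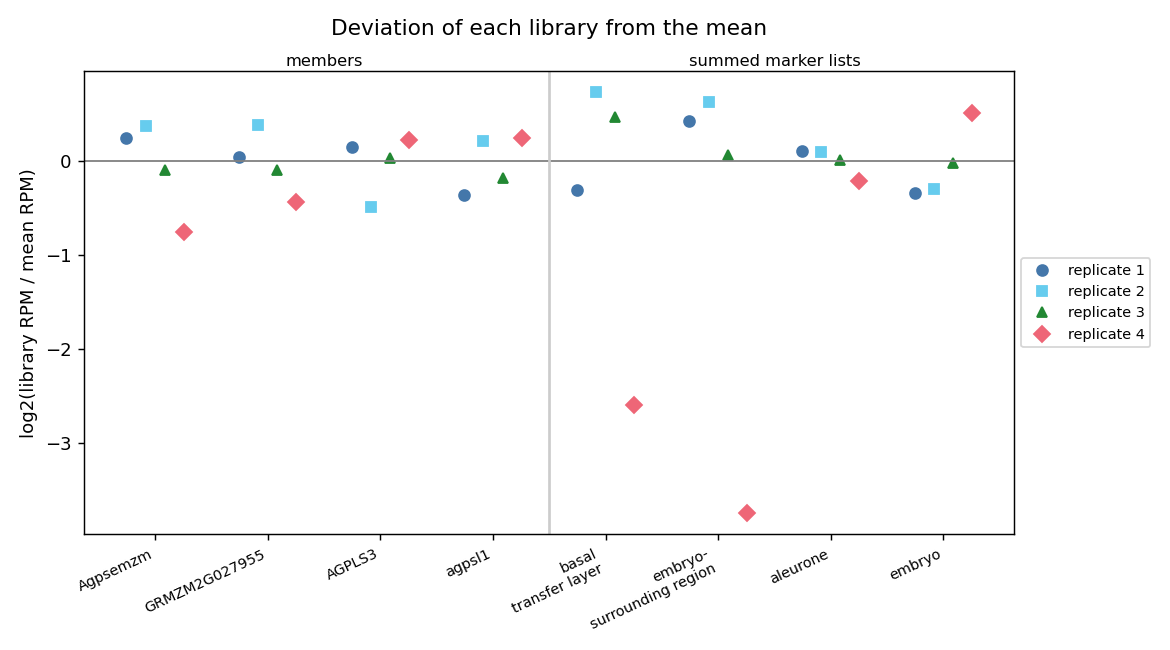
Deviation of each library from the mean of 4, as log2 of its RPM over the mean RPM, for the 4 members that averaged 1 RPM or more (left) and for summed marker lists (right). In replicate 4 Agpsemzm lies at -0.76 and GRMZM2G027955 at -0.44, AGPLS3 at 0.22 and agpsl1 at 0.24, beside -2.60 for basal transfer layer markers and -3.74 for those of the embryo-surrounding region.

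Other genes between sucrose and starch gave the setting for these levels. Of 26 symbols on the list, 12 matched a single model, 2 matched several and 12 matched none. Of the 12 genes, 6 were detected and 5 of them reached a mean of 10 RPM, and the median was 2.23 RPM. Over all 110028 models the shares were 19.3 and 10.2%, and 65.8% of models had no read. The chi-square test was run for 6 of the 12 and called 4, beside the 44.3% of all genes and 55.1% of those at 10 RPM or more given above. Among sucrose synthases, which split sucrose, the highest was sus1 at 0.827 ± 0.451 RPM and the lowest sh1 at 0, 0, 0 and 1.28 RPM in replicates 1 to 4, so that all 7 reads of sh1 came from replicate 4. The hexose phosphate isomerase gene phi1, the single matched gene of its step, had 75.4 ± 9.39 RPM. Of the starch synthases, which use ADP-glucose, dull1 (du1) had 97.6 ± 3.48 RPM, a mean between those of GRMZM2G027955 and Agpsemzm. In replicate 4, however, du1 stood above Agpsemzm, at 102 against 63.2 RPM. The gene waxy1 (wx1), which makes amylose in the filling endosperm, had no read. Of the branching and debranching symbols that matched 1 model, the highest was the debranching enzyme gene zpu1 at 14.9 ± 9.19 RPM and the lowest iso3 at 0.389 ± 0.165 RPM. The branching enzyme symbols ae1 and sbe1 matched several models and were left out of this ranking, although GRMZM2G032628, which carries both names, stood higher at 209 ± 34.6 RPM and GRMZM2G088737, named sbe1, at 17.7 ± 3.80 RPM. The starch phosphorylase gene pho1 had 42.1 ± 6.14 RPM, next to the mean of GRMZM2G027955.

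Genes whose levels over the 4 libraries were closest to those of a member were sought among 6456 other models with a name, by the root mean square difference of log2(RPM + 0.5). Closest to Agpsemzm were GRMZM2G017159 (cl17097_1) at 0.12, GRMZM2G103812 (pco084514) at 0.15 and the kinesin gene KIN6 at 0.15. Closest to GRMZM2G027955 were GRMZM2G074466 (pco132137) at 0.08, GRMZM2G170842 (gpm301) at 0.09 and GRMZM5G849149 (cl55469_1) at 0.10. Closest to AGPLS3 were the protein disulfide isomerase gene pdi4 at 0.13, GRMZM2G152177 (IDP760) at 0.13 and ARF11 at 0.14.

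No other model had reads within 1% of those of GRMZM2G027955, AGPLS3 or Agpsemzm in every library, so none of these was counted as a duplicate of another model. In the RefSeq gene order, sh2 lies between x1, at 35.8 ± 9.32 RPM, and GRMZM2G130358, at 21.6 ± 0.859 RPM. Both matched neighbours of the near-silent sh2 were thus detected. In addition, 1 coding gene overlaps sh2 in that order and was not taken as a neighbour. Its bearing on the few reads of sh2 was not tested. The neighbours of GRMZM2G027955, GRMZM2G320802 and the meiotic cohesin gene afd1, had 28.5 ± 2.87 and 32.2 ± 6.49 RPM. The gene agpsl1 lies between GRMZM2G113742, at 0.171 ± 0.123 RPM, and GRMZM2G450163, at 81.1 ± 38.0 RPM.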

How the data were processed

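RNA was measured in 4 libraries of 1 group. The deposited values are a signal per gene model that the authors scaled so that every library sums to 4773346, as the values themselves show. The submitters' processing notes name bedtools, with no version or role. The aligner, genome build, gene annotation and use of strand were not given in the sources used here, so reads that match several genes may have been split, dropped or counted more than once. In each library all values were whole multiples of 1 step within 0.01 of a read (1.39, 0.879, 1.00 and 0.871 units per read), and division gave whole reads. In replicate 3 the step is so close to 1 that rounding could mimic it, so tests on reads were repeated without that library. This use of recovered reads followed from the values.

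RPM, exact intervals (scipy 1.17.1) and ranks were computed from these reads. Ratios within a library used log2(RPM + 0.5) and a two-sided exact sign-flip test. Division by coding length, and protein and promoter sequences, were planned and could not be used, since no lengths or sequences were at hand. For differences between libraries, a chi-square test set reads against TMM effective library sizes (edgeR 4.0.16), over genes kept by filterByExpr, with Benjamini-Hochberg adjustment at 0.05. The step was tested on simulated data. It compares these libraries and not conditions.

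Names came from RefSeq (gene table for Zm-B73-REFERENCE-NAM-5.0), which matched 18786 of the models through older identifiers. It was used for names and gene order alone. Named genes are the 8 members, the highest and lowest gene of each step of the pathway list, and the 3 named genes closest in level to each member at 10 RPM or more. Neighbours in gene order were added after the values were seen. Members, lists and tests were chosen with earlier results of these data known.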

Additional observations from a re-analysis of the deposited data

Results flagged for a closer look

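One of 20 quantities examined had a library far from the other 3 by Dixon's ratio, which was 0.981 and above its 95% critical value for 4 samples. This was the summed level of sh2 and bt2, at 0.548 RPM in replicate 4 against 1.46 to 1.47 RPM in the other libraries. The reads behind it were 3 in replicate 4 and 5, 8 and 7 in replicates 1 to 3, and the narrow spread of those 3 libraries makes the ratio large. Chance flags about 1 in 20 such groups.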

How the results depend on the processing

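Of 206 results recomputed under an alternative, 203 kept their direction and side of the threshold or moved by less than 1 SD. The number of members that differed between libraries ran from 1 (without replicate 2) to 3 when single libraries were left out, was 3 with no filter on low reads and with library totals in place of TMM, and 2 by edgeR's biological coefficient of variation, each beside the share of all genes given with these counts above. The log2 difference between the highest and lowest library was 0.32 for GRMZM2G027955 and 0.32 for AGPLS3 without replicate 2. With pseudocounts of 1 and 0.1 the log2 ratio was -3.86 and -5.22 for sh2 to AGPLS3, -5.90 and -7.06 for bt2 to Agpsemzm, and -1.83 and -2.78 for bt2 to agpsl1, with the same direction. Of the 12 matched pathway genes, 6 were detected at the main limit and at 2 RPM, and 9 at 0.5 RPM. The count was 7 without replicate 1 or replicate 4, and 6 without replicate 2 or replicate 3. With entries that matched several models put back, it was 9 of 16. The share over all models is not given for these settings. Division by coding length was not run. No paired analysis was possible because the labels give 1 group. Depth limits sh2, bt2, bt1 and GRMZM2G391936, with at most 5 reads in any library.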
